A study of Mus musculus with 4 samples.

Results

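The leukocyte integrin chains Itgam, Itgax, Itgal, Itgb2, Itga4, Itgb1 and Itgb7, the selectin ligand Selplg and the hyaluronan receptor Cd44 were read on 4 mouse expression arrays of sorted bone marrow cells. Members were chosen by gene symbol, as every probe set that the platform annotation assigned to these 9 genes, which gave 17 of 22690 probe sets and 9 of 12393 named genes. The series asks how the transcriptional repressor Gfi1 bears on the choice between monocytes and granulocytes. All cells came from untreated C57BL/6 mice of 8 weeks, backcrossed for at least 10 generations, in which GFP was knocked into the Gfi1 locus. Granulocytes were CD11b+, Gr1-high cells of heterozygous mice (GFP:Gfi1 KI/WT). Gfi1-deficient monocytes were CD11b+, Gr1-low cells of the homozygous knock-in (GFP:Gfi1 KI/KI), which lacks Gfi1, with no GFP gate in the label. GFP-high and GFP-low cells were the CD11b+, Gr1-low fractions of heterozygous mice with high and with low reporter signal. Every array therefore comes from mice with at least 1 knock-in allele, and wild type cells were not analysed here. Each population has 1 array, the number of mice behind an array is not given in the sources used here, and no test, p-value or error between animals can be given.

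Integrins are surface receptors made of an alpha and a beta chain. Itgb2 (CD18) pairs with Itgal (CD11a, the LFA-1 receptor), Itgam (CD11b, the Mac-1 receptor) and Itgax (CD11c). These beta2 integrins hold leukocytes firmly to the vessel wall, and some of them bind complement fragments. Itga4 (CD49d) pairs with Itgb1 to bind the vascular ligand VCAM-1 and with Itgb7 to bind the mucosal ligand MAdCAM-1. Selplg encodes PSGL-1, the main ligand through which leukocytes roll on selectins, once it carries the right sugars. Cd44 binds hyaluronan in the matrix. CD11b was part of the gate of all 4 populations, so the Itgam level is that of cells already selected for its protein.

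The bases before the transcription start are shown for Itgam, which read highest in granulocytes, and for Itga4, Itgb1 and Itgb7, which read highest in GFP-low monocytes. They are the 250 bases before the start in the direction of the gene, from RefSeq on GRCm38.p6. Capitals mark matches, on either strand, to GAGGAA, a form of the site bound by the myeloid factor PU.1, and to AATC, the core of the site bound by Gfi1. No 2 matches overlap.
Itgam (chr7:128062390-128062639, + strand): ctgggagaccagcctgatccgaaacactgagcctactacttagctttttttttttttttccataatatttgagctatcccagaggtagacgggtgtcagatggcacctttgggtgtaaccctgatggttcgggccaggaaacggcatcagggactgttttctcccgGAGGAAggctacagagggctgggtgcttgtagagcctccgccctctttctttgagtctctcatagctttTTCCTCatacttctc
Itga4 (chr2:79255176-79255425, + strand): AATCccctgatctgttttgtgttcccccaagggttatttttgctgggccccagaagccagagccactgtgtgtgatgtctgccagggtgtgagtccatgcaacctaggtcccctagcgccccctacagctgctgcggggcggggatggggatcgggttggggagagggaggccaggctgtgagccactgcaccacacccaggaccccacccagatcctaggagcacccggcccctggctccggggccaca
Itgb1 (chr8:128685404-128685653, + strand): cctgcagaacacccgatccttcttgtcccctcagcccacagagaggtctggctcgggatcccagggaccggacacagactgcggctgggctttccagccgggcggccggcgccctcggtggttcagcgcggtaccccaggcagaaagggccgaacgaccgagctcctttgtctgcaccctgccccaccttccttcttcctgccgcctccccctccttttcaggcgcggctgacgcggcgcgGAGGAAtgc
Itgb7 (chr15:102231936-102232185, - strand): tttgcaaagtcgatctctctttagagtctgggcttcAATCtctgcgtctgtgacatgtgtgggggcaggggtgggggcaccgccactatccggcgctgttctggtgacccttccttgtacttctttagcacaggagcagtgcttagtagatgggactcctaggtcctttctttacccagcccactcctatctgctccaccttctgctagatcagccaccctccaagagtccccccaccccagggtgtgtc
The Itgam window held GAGGAA at 84 and 15 bases before the start and no AATC. The Itgb1 window held GAGGAA at 9 bases before the start and no AATC. Itga4 and Itgb7 each held AATC, at 250 and at 214 bases before the start, and no GAGGAA. Of 27025 genes with a promoter in the table, 23.1% held GAGGAA and 69.8% held AATC in the same window. GAGGAA was held by 3 and AATC by 4 of the 6 members in the table. Of those not shown, which read highest in granulocytes like Itgam, Itgax held AATC and no GAGGAA, and Cd44 held both. A match of letters is a description and not a bound site.

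Values are on a log2 scale, where a difference of 1 is 2-fold. A floor was set at the 40th percentile of all values, 5.18, and a value under it was set to it before a difference was taken. Array medians lay between 5.91 and 6.01, and 59.2% to 61.0% of probe sets were above the floor. The Gfi1 probe set read 7.31 in granulocytes, 5.18 (under the floor) in Gfi1-deficient monocytes, 10.31 in GFP-high cells and 3.74 in GFP-low monocytes, in the order of the GFP labels for the last pair. All 10 monocyte markers on the array were above the floor everywhere, but their summed linear signal was 5554 in granulocytes, 57565 in Gfi1-deficient monocytes, 2499 in GFP-high cells and 60804 in GFP-low monocytes. The GFP-high array thus read low in the markers of the cell type named in its label, and it is called here by its sort. Its granulocyte precursor markers, such as Mpo and Elane, summed to 45030, against 1664 to 11811 on the other arrays. The array of Gfi1-deficient monocytes also stood apart in sex-linked transcripts, with Xist at 5.80 against 9.56 to 10.93 elsewhere and Eif2s3y at 8.31 against values under the floor, so that genotype and sex of the mouse cannot be told apart in comparisons with it. The members lie on chromosomes 2, 5, 7, 8, 10 and 15. In sorted bulk cells, fewer cells of a type and less RNA per cell cannot be told apart.

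The error that the arrays allow is the scatter between probe sets of the same gene. It was taken over 2584 genes with at least 2 probe sets that passed the floor on all arrays, from the pair of highest mean in each gene, as the SD of the gap between their log2 differences over the square root of 2. It came to 0.16 for Gfi1-deficient minus GFP-low monocytes, 0.26 for Gfi1-deficient monocytes minus GFP-high cells, 0.27 for GFP-high minus GFP-low cells, 0.34 for granulocytes minus GFP-low monocytes, 0.32 for granulocytes minus GFP-high cells and 0.38 for granulocytes minus Gfi1-deficient monocytes. It holds no spread between animals.

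Of the 17 member probe sets, 13 passed the floor on 1 array or more and 11 on all 4. Each gene was read by the probe set of highest mean, and by that measure 8 of 9 members exceeded the floor on all arrays and Itgax on 2 of them. Granulocytes gave the highest value for 6 members, Itgam, Itgax, Itgal, Itgb2, Selplg and Cd44, and GFP-low monocytes for the other 3, Itga4, Itgb1 and Itgb7. Over the 8621 genes that passed the floor on 1 array or more, granulocytes were highest for 38.3% and GFP-low monocytes for 14.05%. The lowest value lay in GFP-high cells for 4 members, in Gfi1-deficient monocytes for 3, and for 1 each in GFP-low monocytes and granulocytes. The shares of all genes were 22.7% in GFP-high cells, 23.9% in Gfi1-deficient monocytes, 16.6% in GFP-low monocytes and 36.7% in granulocytes. For Itgb2, Cd44 and Itgam the lowest array was closer to the next than the probe set scatter. Itgax was under the floor on its lowest arrays, so its rank there is not resolved. At the top, Itgb1 and Itgb7 did not separate GFP-low from Gfi1-deficient monocytes by more than the scatter.

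**Figure D1:**
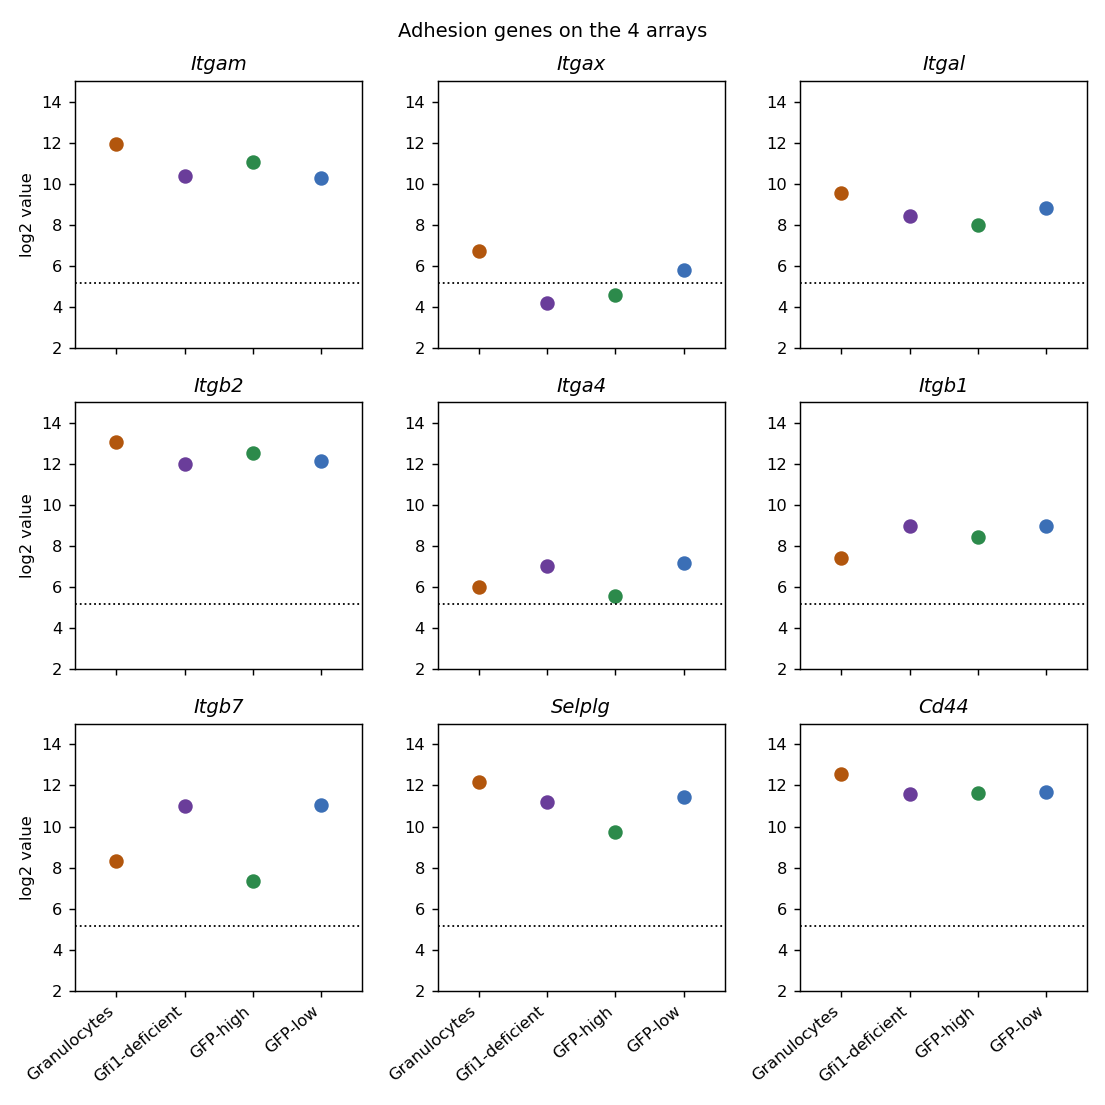
Log2 value (y axis) of the probe set with the highest mean of each of the 9 adhesion genes in granulocytes, Gfi1-deficient monocytes, GFP-high cells and GFP-low monocytes (x axis, 1 array each), with the floor of 5.18 as a dotted line. Itgb7 spans the widest range, from 7.35 in GFP-high cells to 11.05 in GFP-low monocytes, and Itgax alone crosses the floor.

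Itgam, the alpha chain used in the sort, read 11.92 in granulocytes, 10.38 in Gfi1-deficient monocytes, 11.06 in GFP-high cells and 10.28 in GFP-low monocytes. It was highest in granulocytes and next in GFP-high cells, and the Gfi1-deficient and GFP-low arrays differed by 0.10, less than the probe set scatter. Itgb2, the beta chain that all 3 alpha chains of this group share, read 13.09 in granulocytes, 12.02 in Gfi1-deficient monocytes, 12.52 in GFP-high cells and 12.16 in GFP-low monocytes. Its populations fell in nearly the same order as for Itgam, over a narrower range of 1.07.

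Itgal, the alpha chain of LFA-1, read 9.55 in granulocytes, 8.41 in Gfi1-deficient monocytes, 8.01 in GFP-high cells and 8.84 in GFP-low monocytes. Here GFP-high cells were lowest, unlike for Itgam and Itgb2, where they came second. Itgax, the alpha chain known as a dendritic cell marker, read 6.71 in granulocytes and 5.78 in GFP-low monocytes, and it was under the floor in Gfi1-deficient monocytes (4.18) and GFP-high cells (4.57). Granulocytes exceeded either of these at least 2.90-fold. The dendritic cell marker list had 5 of 8 genes above the floor on every array, and its summed signal was 2226 in granulocytes, 1997 in Gfi1-deficient monocytes, 651 in GFP-high cells and 6455 in GFP-low monocytes. The part of such cells in the Itgax values was not tested, and the list's other 3 genes, Ciita, Zbtb46 and Xcr1, were under the floor throughout.

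Itgb7, the beta chain of the mucosal homing integrin, read 8.35 in granulocytes, 10.99 in Gfi1-deficient monocytes, 7.35 in GFP-high cells and 11.05 in GFP-low monocytes. The arrays fell into a high pair and a low pair, with the members of the high pair 0.06 apart, less than the scatter. Its range of 3.70 was the widest among the 9 genes. Itga4, its alpha chain, read 6.00 in granulocytes, 7.02 in Gfi1-deficient monocytes, 5.58 in GFP-high cells and 7.19 in GFP-low monocytes, in the same order. Itgb1, the other beta chain that Itga4 pairs with, read 7.43 in granulocytes, 8.98 in Gfi1-deficient monocytes, 8.45 in GFP-high cells and 8.99 in GFP-low monocytes. For Itgb1 the lowest value was that of granulocytes and not of GFP-high cells, and the upper pair differed by 0.01.

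Itgb7 and Itga4 are also used by mast cells, eosinophils and T cells, so the markers of these cells are given beside them. The eosinophil list summed to 352 in granulocytes, 1852 in Gfi1-deficient monocytes, 6092 in GFP-high cells and 272 in GFP-low monocytes, with 2, 3, 4 and 1 of 5 genes above the floor in the same order. The basophil and mast cell list summed to 5168, 482, 2328 and 704 in that order, with 5, 4, 4 and 4 of 7 genes above the floor. Of that list Hdc gave most of the sum in granulocytes and GFP-high cells, Mcpt8 and Cpa3 were above the floor on all arrays and Fcer1a on 3, and Ms4a2 and Mcpt4 were under it throughout. The T cell list summed to 606, 196, 298 and 225, with 3, 2, 3 and 2 of 5 genes above the floor. The plasma cell list summed to 2046 in granulocytes, 3754 in Gfi1-deficient monocytes, 3165 in GFP-high cells and 5030 in GFP-low monocytes, with 4, 3, 4 and 3 of 4 genes above the floor. Of that list Xbp1, at 10.62 to 11.76, gave most of the sum on every array. Igha and Jchain were highest in GFP-low monocytes, at 10.61 against 7.33 to 8.42 and at 8.18 against 5.60 to 6.49. Sdc1 was highest in GFP-high cells (5.67). The part of any of these cells, or of the monocyte markers given above, in the Itgb7 and Itga4 values was not tested.

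Selplg, the selectin ligand, read 12.15 in granulocytes, 11.18 in Gfi1-deficient monocytes, 9.71 in GFP-high cells and 11.46 in GFP-low monocytes. GFP-high cells stood 1.46 below the next array, while the Gfi1-deficient and GFP-low arrays were 0.28 apart. Cd44 read 12.56 in granulocytes, 11.61 in Gfi1-deficient monocytes, 11.62 in GFP-high cells and 11.69 in GFP-low monocytes. Its 3 Gr1-low arrays lay within 0.08 of each other, and neighbours in their order were closer than the scatter.

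Only Itga4, Itgb1 and Cd44 had more than 1 probe set. Of the 3 probe sets for Itga4, 2 were above the floor and gave the same order, the other one reading 5.36 in granulocytes, 6.91 in Gfi1-deficient monocytes, 5.27 in GFP-high cells and 7.27 in GFP-low monocytes. Of the 6 for Itgb1, 3 were under the floor on every array. Another stayed close to it, at 4.81 in granulocytes (under the floor), 5.62 in Gfi1-deficient monocytes, 5.20 in GFP-high cells and 5.67 in GFP-low monocytes. A second Itgb1 probe set read 5.92 in granulocytes, 8.36 in Gfi1-deficient monocytes, 7.52 in GFP-high cells and 8.48 in GFP-low monocytes, which put it 2.56 lower in granulocytes than in GFP-low monocytes, against 1.56 for the probe set with the highest mean. The second Cd44 probe set read 11.46 in granulocytes, 10.27 in Gfi1-deficient monocytes, 10.02 in GFP-high cells and 10.20 in GFP-low monocytes, a difference of 1.27 between granulocytes and GFP-low monocytes where the first gave 0.87. For 6 members a single probe set carries every value.

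**Figure D2:**
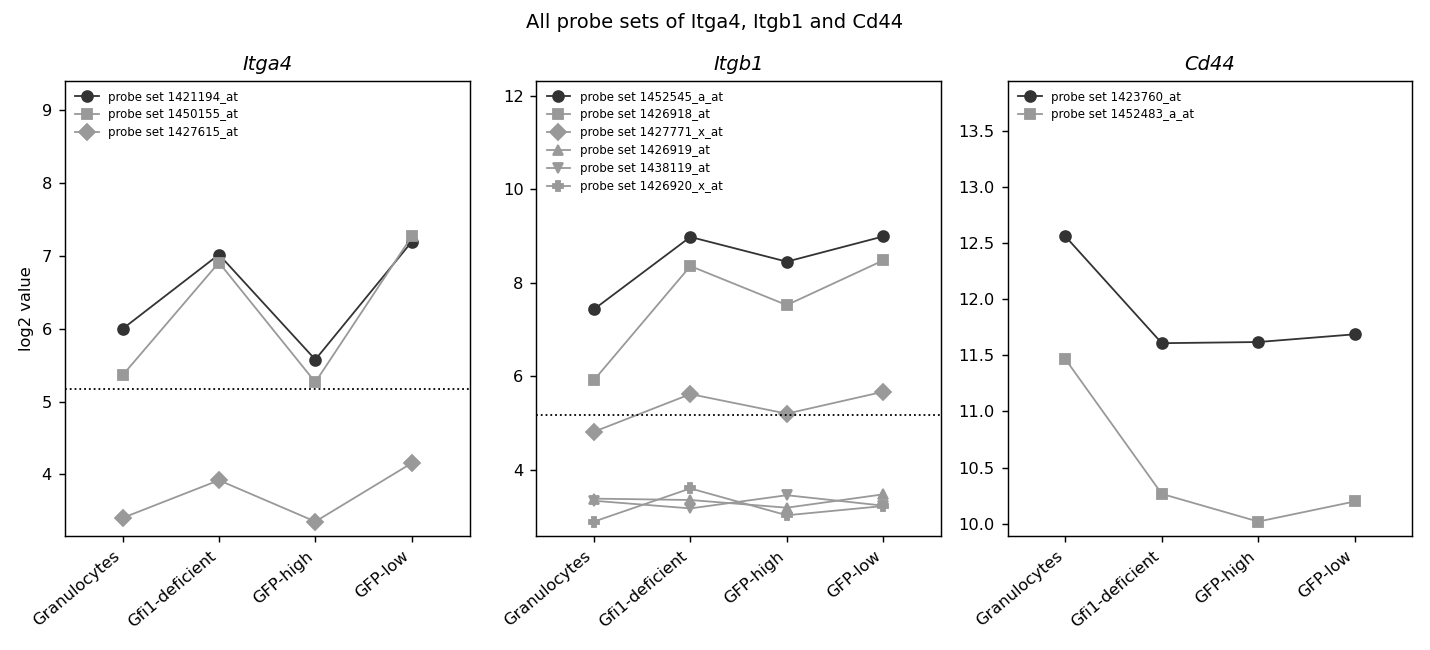
Log2 value (y axis, a scale of its own in each panel) of every probe set of Itga4, Itgb1 and Cd44 in granulocytes, Gfi1-deficient monocytes, GFP-high cells and GFP-low monocytes (x axis), with the probe set used for the gene in black, the others in grey and the floor as a dotted line. Those above the floor read lower for Itga4 and Itgb1 and higher for Cd44 in granulocytes than in GFP-low monocytes, while 1 probe set of Itga4 and 3 of Itgb1 stay under the floor.

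Granulocytes were set against GFP-low monocytes, which share their genotype and differ in the Gr1 gate. The mature granulocyte markers summed to 50128 in GFP-low monocytes against 139943 in granulocytes. The difference is therefore read as one between sorts and not between pure lineages. Itgam was 3.10-fold higher (log2 difference 1.63), and Itgb7 was 6.52-fold, Itgb1 2.94-fold and Itga4 2.29-fold lower. Itgax (0.93), Itgb2 (0.92), Cd44 (0.87), Itgal (0.71) and Selplg (0.69) lay above 0 but under 2-fold, so that all 4 chains of the beta2 group read higher and all 3 chains of the Itga4 group lower. The difference exceeded the probe set scatter for all 9 members, and the share of all genes beyond it was not counted. The 5th and 95th percentiles of all genes were -1.92 and 1.61, so other genes exceed the scatter too. The count of 9 is therefore not a result about the members. At least 2-fold higher were 1 of 9 members (11.1%), beside 10.0% of 8503 genes, and at least 2-fold lower 3 of 9 (33.3%), beside 18.2%. The first share is close to the background and says nothing about the members. With quantile normalization or with median centring of the arrays, 3 members were higher and 3 lower, since Itgax and either Cd44 or Itgb2 crossed the line. Averaging the probe sets of a gene gave 2 higher and 2 lower, with Cd44 at 1.07 and Itgb1 at -0.33. The floor at the 60th percentile put Itga4 at -0.39. In both of these negative values granulocytes were at the floor.

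Granulocytes were next set against GFP-high cells, where the median difference of the 9 members was 0.94, beside 0.03 over all genes. Selplg was 5.42-fold higher (2.44), which 1.54% of all genes exceeded, Itgal was 2.91-fold and Itgax at least 2.90-fold higher, and Itgb1 was 2.02-fold lower (-1.02). Its other measured probe sets gave -1.60 and -0.02, the last with granulocytes at the floor. Itgb7 lay at 0.995, Cd44 at 0.94, Itgam at 0.85, Itgb2 at 0.56 and Itga4 at 0.42, all under the line. At least 2-fold higher were 3 of 9 (33.3%), beside 8.93% of 8457 genes, and lower 1 of 9 (11.1%), beside 16.4%. Under both scaling alternatives 5 members were higher and 0 lower, as Itgb7 and Cd44 passed the line and Itgb1 no longer did. Averaging probe sets gave 4 higher and 0 lower, but it put Itgb1 and Itga4 under the floor on both arrays, so they were not measured.

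Against Gfi1-deficient monocytes, which differ in genotype as well as in Gr1, granulocytes had 4 of 9 members at least 2-fold higher (44.4%), beside 11.2% of 8520 genes, and 3 lower (33.3%), beside 20.3%. The higher ones were the 4 chains of the beta2 group, Itgax by at least 2.90-fold, Itgam 2.89-fold, Itgal 2.20-fold and Itgb2 2.10-fold. Lower were Itgb7 (6.27-fold), Itgb1 (2.92-fold) and Itga4 (2.03-fold). Selplg (0.97) and Cd44 (0.95) lay just under 2-fold, and both scaling alternatives put 6 members on the higher and 2 on the lower side. Averaging the probe sets of a gene took Itgb1 (-0.33) and Itga4 (-0.77) under 2-fold and gave 5 higher and 1 lower. The floor at the 60th percentile took Itga4 (-0.21) under it. In each of these negative values granulocytes were at the floor.

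GFP-high and GFP-low cells share genotype and Gr1 gate and differ in the level of the reporter. Itgb7 was lower in GFP-high cells by 3.70 on the log2 scale, a difference below which 0.850% of all genes lay, Selplg was 3.35-fold lower (-1.75) and Itga4 3.07-fold lower (-1.62). Itgam (0.78) and Itgb2 (0.36) lay above 0, while Itgal (-0.83) and Itgb1 (-0.54) lay below it, and Cd44 (-0.07) was within the scatter. Itgax was lower by at least 1.52-fold, with GFP-high cells at the floor. At least 2-fold lower were 3 of 9 (33.3%), beside 9.61% of 8232 genes, and higher 0 of 9, beside 9.03%. With the floor at the 60th percentile of all values Itga4 was no longer 2-fold apart (-0.39, with GFP-high cells at the floor). With the floor at the 20th percentile Itgax was lower by 1.21 on the log2 scale, which made 4 members lower.

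Gfi1-deficient monocytes were set against both Gr1-low fractions of heterozygous mice. Against GFP-high cells, Itgb7 was 12.5-fold (3.64), Selplg 2.76-fold (1.46) and Itga4 2.72-fold higher (1.44). Itgb1 (0.53) and Itgal (0.40) lay above 0, Itgam (-0.68) and Itgb2 (-0.50) below it, and Cd44 (-0.01) within the scatter. Itgax was under the floor on both arrays and has no value. At least 2-fold higher were 3 of 8 measured members (37.5%), beside 9.53% of 8195 genes, and lower 0, beside 7.81%. Averaging the probe sets of a gene put Itga4 at 0.77 and the floor at the 60th percentile at 0.21, both under 2-fold and with GFP-high cells at the floor.

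Against GFP-low monocytes, 0 of 9 members were 2-fold apart in either direction in Gfi1-deficient monocytes, beside 0.637% of 8010 genes higher and 1.27% lower. With so small a background share, a count of 0 is not a result about the members. Itgb7 (-0.06), Itgb1 (-0.01), Cd44 (-0.08), Itgb2 (-0.15) and Itgam (0.10) were within the scatter of 0.16. Selplg (-0.28), Itgal (-0.43) and Itga4 (-0.18) lay beyond it, Itga4 only just. Itgax was lower by at least 1.52-fold, at the floor in Gfi1-deficient monocytes. The median over the 9 members was -0.15 beside 0.03 over all genes. The 5th and 95th percentiles of all genes were -0.49 and 0.48. The share of all genes within the scatter was not counted, so 5 of 9 within it is not a result about the members. The second Cd44 probe set gave 0.07. The comparisons share arrays, so their values are given side by side and not as independent evidence.

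**Figure D3:**
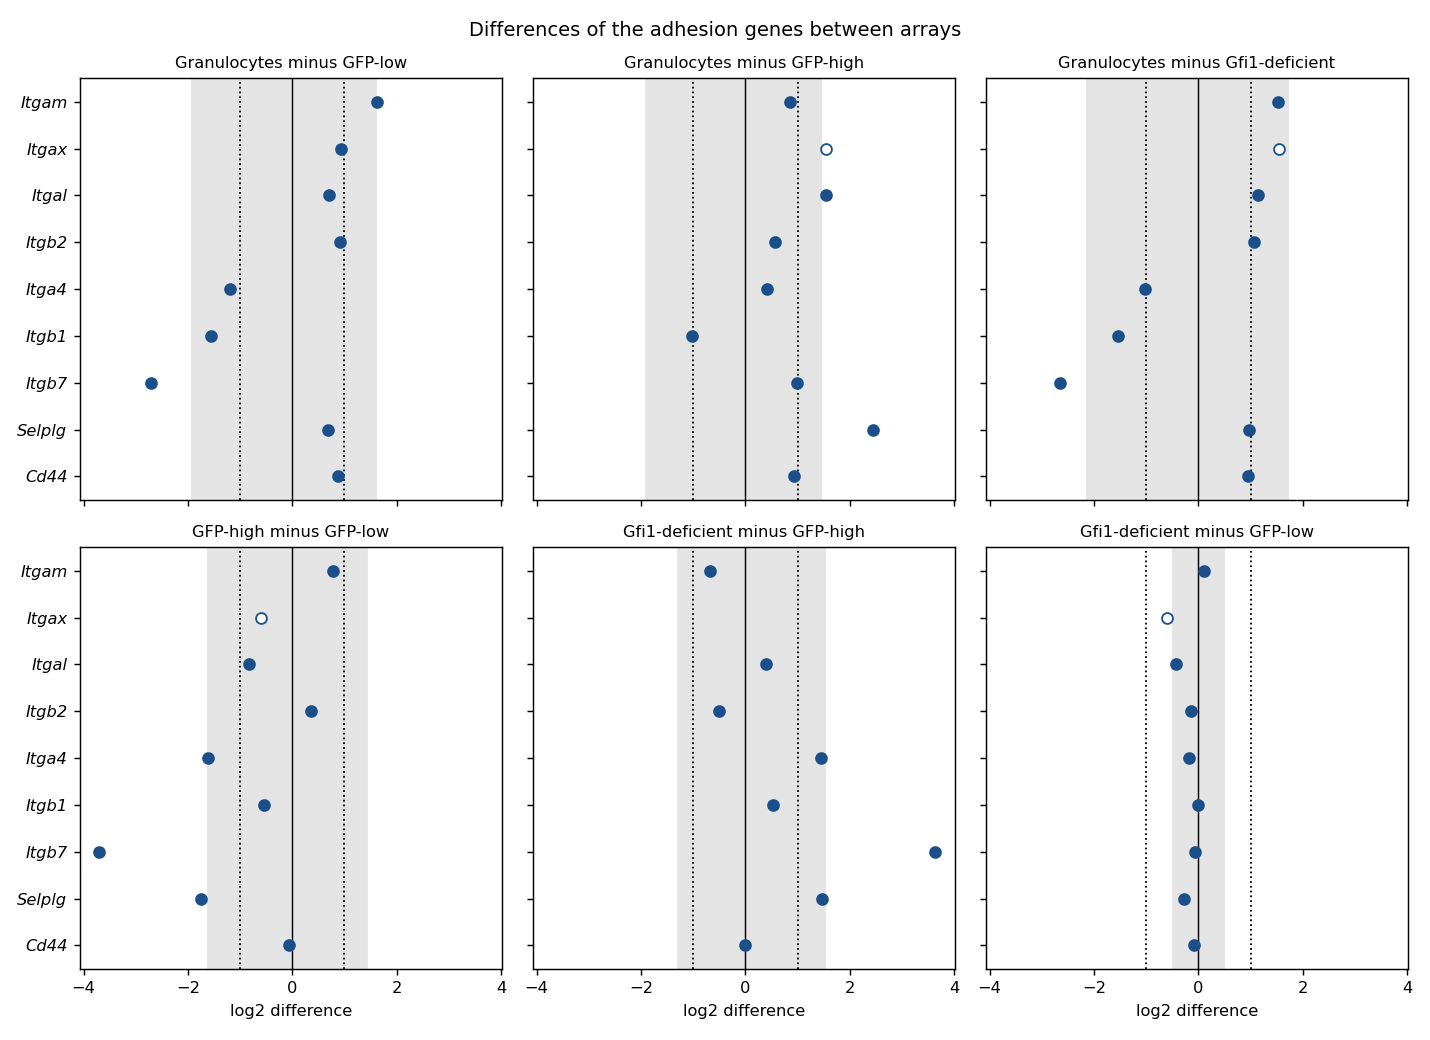
Log2 difference (x axis) of each of the 9 adhesion genes (y axis) in the 6 comparisons of arrays, the first population of each title minus the second, with dotted lines at 2-fold and a grey band from the 5th to the 95th percentile of all genes. Open circles have 1 array at the floor and are bounds, and a gene at the floor on both arrays is not drawn. Itgb7 lies outside the band in 4 of the 6 panels, and the panel of Gfi1-deficient minus GFP-low monocytes has no gene past 2-fold.

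The other integrin chains on the array were 15 genes, of which 10 passed the floor on 1 array or more. Itgb2l, a beta chain closely related to Itgb2, had the widest range. It read 12.56 in granulocytes, 5.58 in Gfi1-deficient monocytes, 12.19 in GFP-high cells and 7.78 in GFP-low monocytes. Gfi1-deficient monocytes were thus 98.1-fold below GFP-high cells and 4.60-fold below GFP-low monocytes, and 27.5-fold higher in granulocytes than in GFP-low monocytes. The range of 6.98 compares with 1.07 for Itgb2. The summed signal of the 11 mature granulocyte markers fell in the same order. It was 139943 in granulocytes, 20505 in Gfi1-deficient monocytes, 105312 in GFP-high cells and 50128 in GFP-low monocytes. All 11 were above the floor on each array, but single genes did not all follow that order. Camp, a granule protein of that list, read 7.37 in Gfi1-deficient monocytes against 12.41 in GFP-low monocytes. Mmp8 and Il1r2 of the same list went the other way, Il1r2 at 6.69 against 6.31. Csf3r (10.19 against 10.36) and Il1b (7.63 against 7.92) were only slightly lower in Gfi1-deficient monocytes. The part of granulocytes in the Itgb2l values was not tested. Itga6, the laminin receptor chain, was 4.61-fold higher in GFP-high than in GFP-low cells, reading 7.65 in granulocytes, 7.14 in Gfi1-deficient monocytes, 9.11 in GFP-high cells and 6.90 in GFP-low monocytes. Itga5, the chain that forms the fibronectin receptor with Itgb1, read 6.10 in granulocytes, 7.85 in Gfi1-deficient monocytes, 6.33 in GFP-high cells and 7.77 in GFP-low monocytes. A second Itga5 probe set read 6.19 in granulocytes, 6.88 in Gfi1-deficient monocytes, 6.06 in GFP-high cells and 6.69 in GFP-low monocytes, which turns the sign of the small difference between granulocytes and GFP-high cells.

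Counted over this list in granulocytes minus GFP-low monocytes, 1 of 10 measured chains lay 2-fold or more above 0 and 1 below. The shares of all genes were 10.0% and 18.2%, and the list median was 0.43 beside 0.00 over all genes. Itgb5, named here after its values were seen, counts as under 2-fold by its probe set of highest mean (7.56 in granulocytes against 8.30 in GFP-low monocytes), while its 3 others read 6.51 against 8.81, 6.30 against 7.66, and 3.80 (under the floor) against 6.44. Between GFP-high and GFP-low cells 2 of 10 were higher and 1 lower, beside 9.03% and 9.61% of all genes (median 0.03, all genes 0.03). Between Gfi1-deficient and GFP-low monocytes 0 of 9 were higher and 1 lower, beside 0.637% and 1.27% of all genes (-0.11, all genes 0.03). Of the selectins themselves, Sele, made by endothelium, was under the floor throughout. Selp, the selectin of platelets and endothelium, read 7.36 in granulocytes, 7.30 in Gfi1-deficient monocytes, 5.77 in GFP-high cells and 5.13, under the floor, in GFP-low monocytes. Gfi1-deficient monocytes exceeded GFP-low monocytes at least 4.36-fold, and at least 0.75 on the log2 scale by a second probe set. The platelet list summed to 490 in granulocytes, 318 in Gfi1-deficient monocytes, 402 in GFP-high cells and 379 in GFP-low monocytes. On each array 5 of its 6 genes were above the floor, and the part of platelets in the Selp values was not tested.

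**Figure D4:**
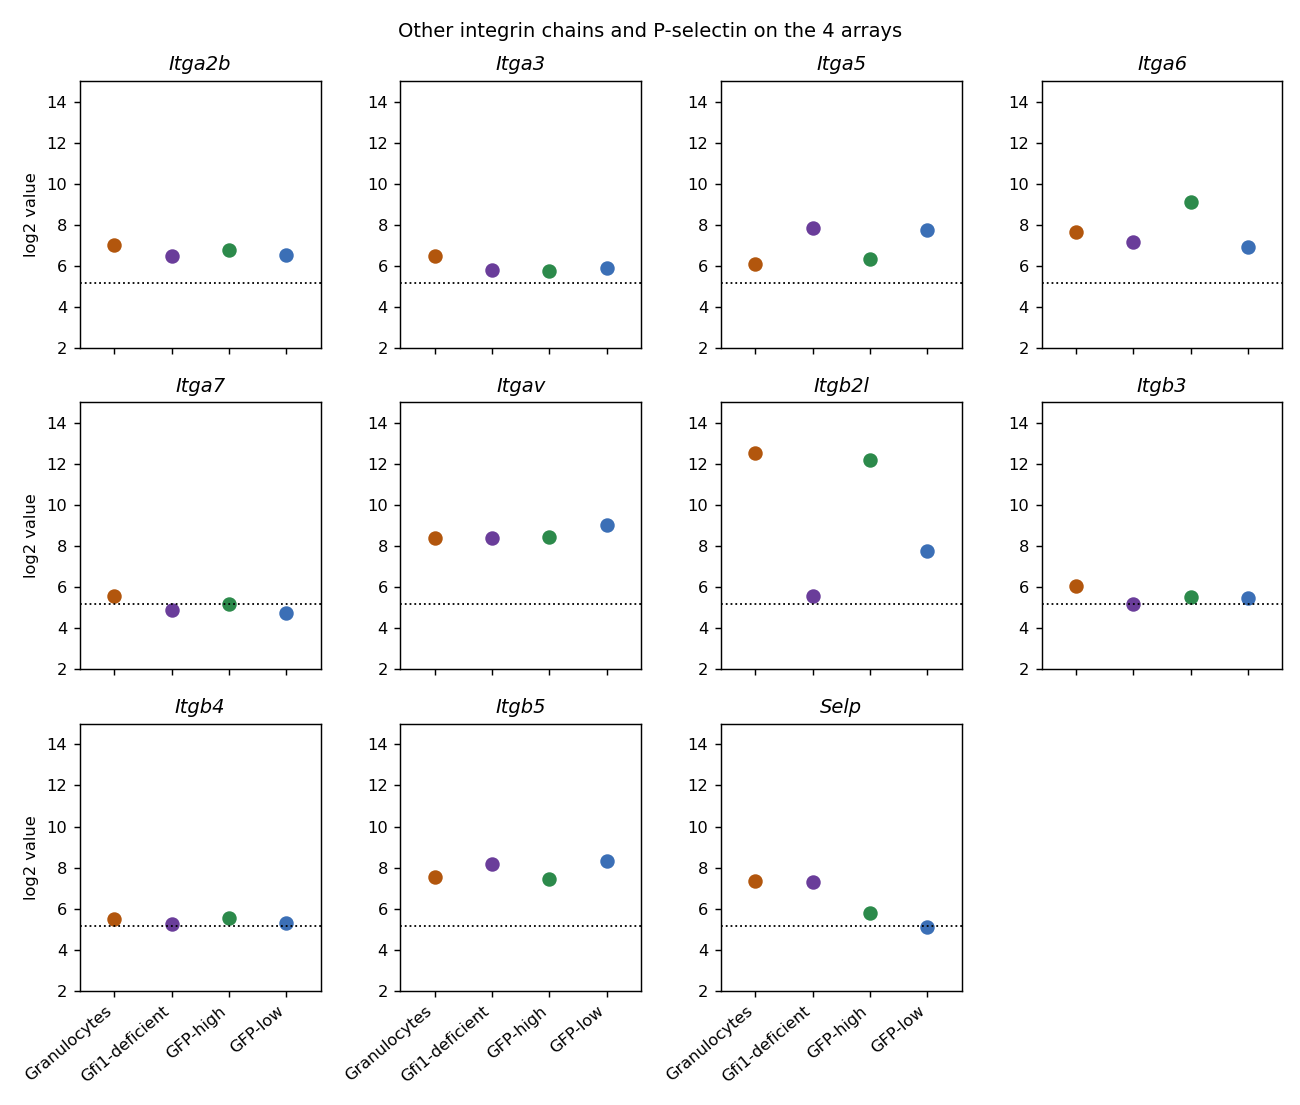
Log2 value (y axis) of the other integrin chains and of Selp that passed the floor (dotted line, 5.18) somewhere, in granulocytes, Gfi1-deficient monocytes, GFP-high cells and GFP-low monocytes (x axis, 1 array each). Itgb2l shows the widest range, from 5.58 in Gfi1-deficient monocytes to 12.56 in granulocytes.

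Integrins bind only after talin and kindlin are recruited to their tails, which are then tied to actin. In granulocytes minus GFP-low monocytes, 10.0% of all genes lay 2-fold or more above 0 and 18.2% below. Of the 28 measured genes of this list, 4 lay as far above and 0 as far below (median 0.47, all genes 0.00). They were Actn1, an actin crosslinker, at 11.83 in granulocytes against 6.60 in GFP-low monocytes, Vasp, which extends actin filaments, at 12.44 against 10.13, Parvg, a parvin of blood cells, at 10.56 against 8.73, and the adaptor Pxn at 12.40 against 10.92. Between GFP-high and GFP-low cells 3 of 28 were higher and 2 lower, beside 9.03% and 9.61% of all genes (median -0.02, all genes 0.03). Actn1 was at 4.19 and Cytip, an inhibitor of the integrin activator cytohesin, at -2.50. Between Gfi1-deficient and GFP-low monocytes 0 were higher and 1, Actn1, lower (-1.09), though its 3 probe sets ranged from -1.09 to -0.01. Of all genes, 0.637% were higher and 1.27% lower there.

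Among kinases near the receptor, 1 of 7 measured passed 2-fold in granulocytes minus GFP-low monocytes (median 0.12, all genes 0.00). This was Fgr, a Src family kinase of myeloid cells, at 1.08, where 10.0% of all genes were higher and 18.2% lower. Csk, which restrains these kinases, and Pik3cd, a phosphoinositide kinase of leukocytes, were at -1.08 and -1.07 in GFP-high minus GFP-low cells. That made 2 of 6 lower and 0 higher, beside 9.61% and 9.03% of all genes (median -0.46, all genes 0.03). None of 6 measured passed 2-fold between Gfi1-deficient and GFP-low monocytes, where 0.637% of all genes were higher and 1.27% lower (median -0.18, all genes 0.03).

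Selectin ligands need sugars added by a set of Golgi enzymes. St3gal6, a sialyltransferase of selectin ligands, read 8.49 in granulocytes and was under the floor elsewhere, which puts granulocytes at least 9.92-fold above each other array, and at least 2.69 on the log2 scale by its second probe set. Gcnt1, which starts the branch that carries the selectin-binding sugar, read 7.67 in granulocytes, 6.72 in Gfi1-deficient monocytes, 4.70 (under the floor) in GFP-high cells and 6.19 in GFP-low monocytes, so that, as for Selplg, it was highest in granulocytes and lowest in GFP-high cells. Tpst1, which adds the sulfate that P-selectin needs, read 6.36 in granulocytes, 7.47 in Gfi1-deficient monocytes, 6.28 in GFP-high cells and 7.97 in GFP-low monocytes. C1galt1c1, the chaperone of the enzyme that builds the sugar core, read 8.62 in granulocytes, 11.42 in Gfi1-deficient monocytes, 8.44 in GFP-high cells and 11.30 in GFP-low monocytes, but its second probe set gave a difference of 0.18 for granulocytes minus GFP-low monocytes where the first gave -2.68. In the whole list, 3 of 14 measured genes were higher and 4 lower in granulocytes than in GFP-low monocytes (median -0.38, all genes 0.00). The shares of all genes were 10.0% and 18.2%. In GFP-high against GFP-low cells 1 of 13 was higher and 4 lower, beside 9.03% and 9.61% (-0.54, all genes 0.03). In Gfi1-deficient against GFP-low monocytes 0 of 13 passed in either direction, beside 0.637% and 1.27% (0.00, all genes 0.03).

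Several partners of Cd44 spanned wider ranges than the 0.95 of Cd44. Vcan, a hyaluronan-binding proteoglycan, read 10.22 in Gfi1-deficient monocytes, against 8.67 in GFP-low monocytes, and was under the floor in granulocytes (3.94) and GFP-high cells (4.09). The Gfi1-deficient array was 2.93-fold above the GFP-low array. Mmp9, a secreted protease that binds Cd44 and is also one of the mature granulocyte markers, read 13.59 in granulocytes, 5.94 in Gfi1-deficient monocytes, 11.25 in GFP-high cells and 8.45 in GFP-low monocytes. Adam8, a membrane protease of leukocytes, read 12.48 in granulocytes, 7.68 in Gfi1-deficient monocytes, 9.50 in GFP-high cells and 7.46 in GFP-low monocytes. Cd74, a partner of Cd44 in signalling by the cytokine MIF and the invariant chain of MHC class II, read 9.58 in granulocytes, 9.49 in Gfi1-deficient monocytes, 7.38 in GFP-high cells and 11.30 in GFP-low monocytes. In this list 4 of 14 measured genes were higher and 2 lower in granulocytes than in GFP-low monocytes (median 0.08, all genes 0.00). The shares of all genes were 10.0% and 18.2%. In GFP-high against GFP-low cells 4 of 13 were higher and 3 lower, beside 9.03% and 9.61% (0.25, all genes 0.03). In the Gfi1-deficient array set against GFP-low monocytes 1 of 13 was higher and 2 lower, beside 0.637% and 1.27% (0.03, all genes 0.03).

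Among the ligands of these receptors and other adhesion proteins, Icam1, the ligand of LFA-1 and Mac-1, read 5.50 in granulocytes, 7.50 in Gfi1-deficient monocytes, 5.31 in GFP-high cells and 7.82 in GFP-low monocytes. Vcam1, the ligand of the Itga4 and Itgb1 pair, read 7.17 in granulocytes, 6.26 in Gfi1-deficient monocytes, 10.66 in GFP-high cells and 6.07 in GFP-low monocytes. It is also a marker of bone marrow macrophages, and the other 8 genes of that list summed to 4090 in granulocytes, 1892 in Gfi1-deficient monocytes, 3280 in GFP-high cells and 2054 in GFP-low monocytes. Of these 8 genes, 5 were highest and 2, Adgre1 and Hmox1, lowest in GFP-high cells. The part of macrophages in the Vcam1 value was not tested. Fn1, fibronectin, read 8.75 in granulocytes, 13.22 in Gfi1-deficient monocytes, 8.21 in GFP-high cells and 13.27 in GFP-low monocytes. In the list 4 of 16 measured genes were higher and 2 lower in granulocytes than in GFP-low monocytes (median 0.01, all genes 0.00). The shares of all genes were 10.0% and 18.2%. In GFP-high against GFP-low cells 3 of 13 were higher and 4 lower, beside 9.03% and 9.61% (-0.01, all genes 0.03). In Gfi1-deficient against GFP-low monocytes 0 of 15 passed in either direction, beside 0.637% and 1.27% (-0.05, all genes 0.03).

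Over all 7 lists, Gfi1-deficient monocytes had 14 of 86 measured genes 2-fold or more above and 14 below their level in GFP-high cells, beside 9.53% and 7.81% of all genes. Granulocytes had 16 of 87 higher and 4 lower against GFP-high cells, beside 8.93% and 16.4% of all genes. Against Gfi1-deficient monocytes they had 18 of 91 higher and 8 lower, beside 11.2% and 20.3%. In the activation list, granulocytes had 6 of 27 higher against GFP-high cells and 7 of 28 against Gfi1-deficient monocytes, with 0 lower in both (medians 0.51 and 0.51, all genes 0.03 and -0.01). Fyb, an adaptor that links receptors to integrins, was among the genes higher than in GFP-high cells, at 11.59 in granulocytes against 9.52 in GFP-high cells.

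**Figure D5:**
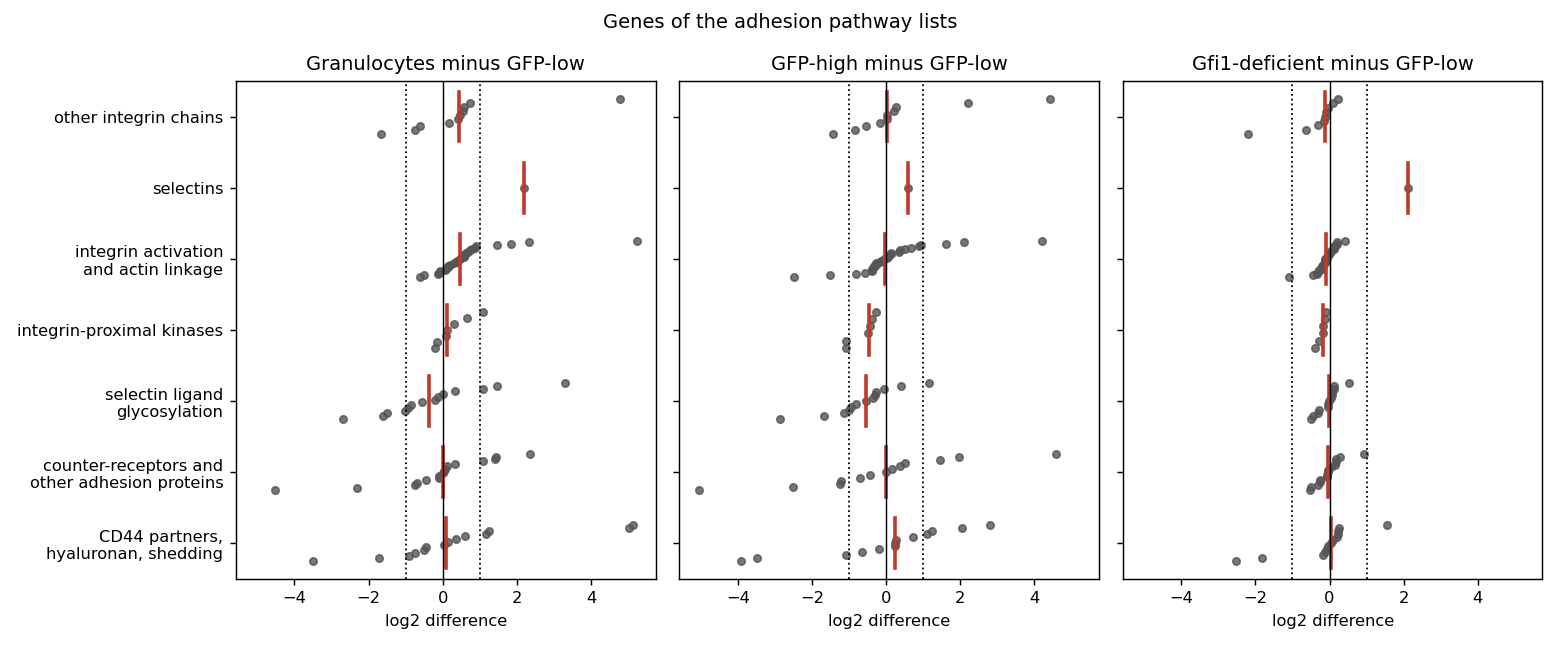
Log2 difference (x axis) of each measured gene (grey points) of the 7 adhesion lists (y axis) in granulocytes, GFP-high cells and Gfi1-deficient monocytes, each minus the same array of GFP-low monocytes, with list medians as red bars and dotted lines at 2-fold. The points spread widely in the first and second panels, and in the third nearly all lie inside 2-fold, with Selp (2.12) and Vcan (1.55) above it and Mmp9 (-2.52), Itgb2l (-2.20), Cd74 (-1.81) and Actn1 (-1.09) below it.

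The genes most like each member were sought among 7215 genes above the floor on all arrays, by the root mean square distance between the 4 values after each gene was centred on its own mean. For Itgb7 they were Tmem176b (distance 0.17), Rhoq (0.18) and Ctss (0.18), the last a lysosomal cathepsin that read 10.40 in granulocytes, 13.01 in Gfi1-deficient monocytes, 8.98 in GFP-high cells and 13.13 in GFP-low monocytes. For Itga4 they were Necap2 (0.04), Selenop (0.05) and Rap2b (0.06), and for Itgb1 the ribosomal protein gene Rpl19 (0.03), the proteasome subunit gene Psma4 (0.04) and Frrs1 (0.04). Selplg lay nearest to Klhl24, Sh3glb1 and the integrin adaptor gene Fyb (0.13 to 0.14). For Itgam the nearest were Zfp821 (0.04), Map2k4 (0.05) and Thap4 (0.05), for Itgb2 Jup (0.03), Tor4a (0.04) and Cflar (0.04), and for Itgal Gbp7 (0.04), Cyb5r1 (0.07) and Foxo3 (0.07). Itgax, with values under the floor set to it, lay nearest to Nfkbiz (0.09), Cldn13 (0.09) and the kinase gene Fgr (0.11). Cd44 spanned less than 1 and was not compared. With 4 arrays from 1 sort each, many genes share a profile, and none of these distances has an error.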

How the data were processed

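The data are 4 Affymetrix arrays, 1 for each population. Per the labels' protocols, cRNA carrying biotin was prepared from 6 µg of TRIzol-extracted total RNA. The authors deposited 1 value for each probe set, which was read as log2 from its range of 2.70 to 14.50, since the log base is not stated. How the background was corrected and how probes were summarised and scaled is not stated in the sources used here. Near-equal array medians mean that a shift shared by most genes would not be seen.

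Probe sets were named from the platform annotation (20393 with 1 gene, 691 with several, 1606 with none, the last 2 kinds left unnamed), updated by gene identifier to GRCm38.p6, where 20364 matched. The probe set of highest mean over the arrays stood for its gene. Counts took genes 2-fold or more apart, over those above the floor on at least 1 of the 2 arrays compared, with Python 3.11.15 and pandas 2.3.3. No test was made, and the counting was tested on simulated data. Arrays have no read depth, and their number limits the precision. From each list at most 4 genes per comparison, those with the largest difference past 2-fold, were eligible to be named, while marker genes, genes most like a member and genes under the floor are named as such. The members, lists and rules were chosen with earlier results of these data known. Alternatives were another floor, quantile normalization, median centring, the mean of a gene's probe sets and a 4-fold rule.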

Additional observations from a re-analysis of the deposited data

How the results depend on the processing

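The limits are 1 array for each population, a single probe set for 6 of 9 members, and values near the floor for Itgax and Itga4. No paired analysis was possible because each group has 1 array. Over 5 alternatives, 0 of 257 recomputed member differences turned a 2-fold difference round, and 3 that were -0.01 changed sign, to at most 0.12. The 2-fold line was crossed by 29 differences, 16 of them under the scaling alternatives, all in comparisons with granulocytes (Itgax, Itgb2, Itga4, Itgb1, Itgb7, Selplg and Cd44). With the floor at the 20th percentile, 1 member was 2-fold apart between Gfi1-deficient and GFP-low monocytes, where 0 were before, namely Itgax (-1.60), which also passed 2-fold in GFP-high minus GFP-low cells (-1.21, 4 members against 3). Under the 4-fold rule 1 member remained in each of the other 5 comparisons, Selplg in granulocytes minus GFP-high cells and Itgb7 in the rest, since the stricter rule counts fewer. With the floor at the 60th percentile, 3 list genes were 2-fold apart between Gfi1-deficient and GFP-low monocytes, against 6 before, since fewer low values are left. Averaging probe sets, of which several are under the floor, put Itgb1 in granulocytes minus GFP-low monocytes at -0.33 where it was -1.56. Granulocytes were then at the floor.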
